A study of Bos taurus with 52 samples.

Results

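Transcripts of 6 cathepsins (CTSB, CTSD, CTSH, CTSK, CTSS and CTSZ) and 3 cystatins (CST3, CST6 and CSTB) were followed through bovine endometrium and conceptuses. The 9 genes were taken by symbol from the 31651 named genes of a table of read counts, and all 9 passed the filter on low counts in both tissues. Cathepsins are proteases that are made as inactive precursors, matured in the acidic lysosome and in part secreted. Cystatins are tight, reversible inhibitors of the cysteine cathepsins, and they do not inhibit the aspartic protease CTSD. In ruminants both families are known from the uterus of early pregnancy, when the conceptus elongates and secretes interferon tau, and when the endometrium supplies it with secretions.

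All animals were heifers that had been sorted into 3 fertility classes, high fertile (HF), subfertile (SF) and infertile (IF). Endometrium came from 25 of them, 5 per group. NP-HF, NP-SF and NP-IF were the non-pregnant groups of the 3 classes, and P-HF and P-SF were pregnant. Pregnancy was at day 17, and the sources used here do not give a day for the non-pregnant animals. The 27 conceptuses were also of day 17. C-SF held 10 from 7 SF recipients, C-HF-long held 10 classed as long from 10 HF recipients, and C-HF-short held 7 classed as short from 6 HF recipients.

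Levels are given in CPM, read counts scaled to each library's TMM-adjusted total within its tissue. They compare a gene between samples, not one gene with another. Depth was 17.1 to 27.3 M reads per endometrial library and 20.5 to 47 M reads per conceptus library. The tissue markers were where the labels place them: CDX2, a trophectoderm transcription factor, was 11 to 29.4 CPM in conceptuses and at most 0.566 CPM in endometrium, while FOXA2, a gland marker, was 15.2 to 38.4 CPM in endometrium and at most 3.30 CPM in conceptuses. The leukocyte marker PTPRC had a median of 37.3 CPM in endometrium and 0.0918 CPM in conceptuses. Conceptus lengths, where the titles give them, ran, to 2 digits, from 1.5 to 14 cm in C-SF (9 of 10, median 4 cm), from 9 to 17 cm in C-HF-long (5 of 10, median 12 cm) and from 1.2 to 6.9 cm in C-HF-short (6 of 7, median 2.2 cm). For 22 of the 27 conceptuses the description field names another animal or length than the title. Titles were used, and every conceptus result below rests on them.

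Some libraries stood apart. P-SF replicate 5 had the highest summed level of 20 interferon-stimulated genes of all endometrial libraries, 25880 CPM against 9696 to 14910 CPM in the other 4 of its group, and a summed level of 12 macrophage and monocyte markers of 437.2 CPM against 183.1 to 264.5 CPM. P-HF replicate 1 was lowest of its group in both sums, at 9561 CPM against 17870 to 23260 CPM and at 215.4 CPM against 274.6 to 456.4 CPM. Among conceptuses, those of 2 recipients stood apart, the recipient of C-HF-long replicate 8 for CTSB and CST3 and the recipient of C-HF-long replicate 3 for CTSS and CST6. Many of the member results that rest on these libraries are given with and without them. The related gene lists, the marker lists and the correlations over endometrial libraries are given with all libraries only.

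In the endometrium the clearest change with pregnancy was in CTSS, a cysteine protease that stays active at neutral pH and trims the invariant chain of MHC class II in antigen-presenting cells. CTSS was 132, 172, 167, 190 and 150 CPM in the 5 NP-HF heifers and 226, 316, 287, 272 and 392 CPM in the 5 P-HF heifers. It was 145, 156, 145, 142 and 167 CPM in NP-SF and 239, 269, 228, 251 and 416 CPM in P-SF. In both fertility classes every pregnant animal was above every non-pregnant one, and the difference between the 2 means was larger than the SD of any of the 4 groups. Of the 19606 genes tested, 12.1% had pregnant and non-pregnant groups that did not overlap in HF and 5.56% in SF. The log2 fold change was 0.88 ± 0.15 (SE) in HF (adjusted p = 0.000163) and 0.89 ± 0.15 in SF (adjusted p = 0.00033). These are edgeR quasi-likelihood tests, adjusted by Benjamini and Hochberg's method over 19606 genes. A gene is called at an adjusted p under 0.05. Without P-SF replicate 5, the highest of all 25 libraries at 416 CPM, the change of CTSS in SF was 0.71 (adjusted p = 7.66e-04). In these bulk samples a change in the share of a cell type and a change in RNA per cell cannot be told apart.

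CTSB, the lysosomal cysteine protease that can cut from within a protein and from its carboxyl end, was 384, 456, 394, 471 and 547 CPM in NP-HF and 542, 839, 1061, 514 and 818 CPM in P-HF. The 2 lowest P-HF animals lay below the highest NP-HF animal. The change passed the test, at 0.74 ± 0.17 (adjusted p = 0.00245). In SF, CTSB was 471, 545, 483, 374 and 569 CPM without pregnancy and 677, 640, 602, 579 and 923 CPM with it. These ranges did not overlap, which held for 5.56% of all genes in SF. The difference of 0.49 ± 0.17 did not pass the adjustment (adjusted p = 0.107), and it was 0.36 (adjusted p = 0.361) without P-SF replicate 5.

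CTSZ, a carboxypeptidase found in monocytes and many other cells, was 54.2, 55.3, 63.0, 83.7 and 61.6 CPM in NP-HF and 71.7, 112, 154, 126 and 108 CPM in P-HF. Only P-HF replicate 1 and NP-HF replicate 4 crossed, and CTSZ rose by 0.85 ± 0.24 (adjusted p = 0.0129). In SF the values were 53.9, 59.2, 65.6, 42.0 and 77.1 CPM without pregnancy and 65.7, 87.8, 82.7, 70.2 and 189 CPM with it. The difference was 0.73 ± 0.24 (adjusted p = 0.0869), and the 189 CPM of P-SF replicate 5 carried much of it: without that library it was 0.36 (adjusted p = 0.427).

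**Figure D1:**
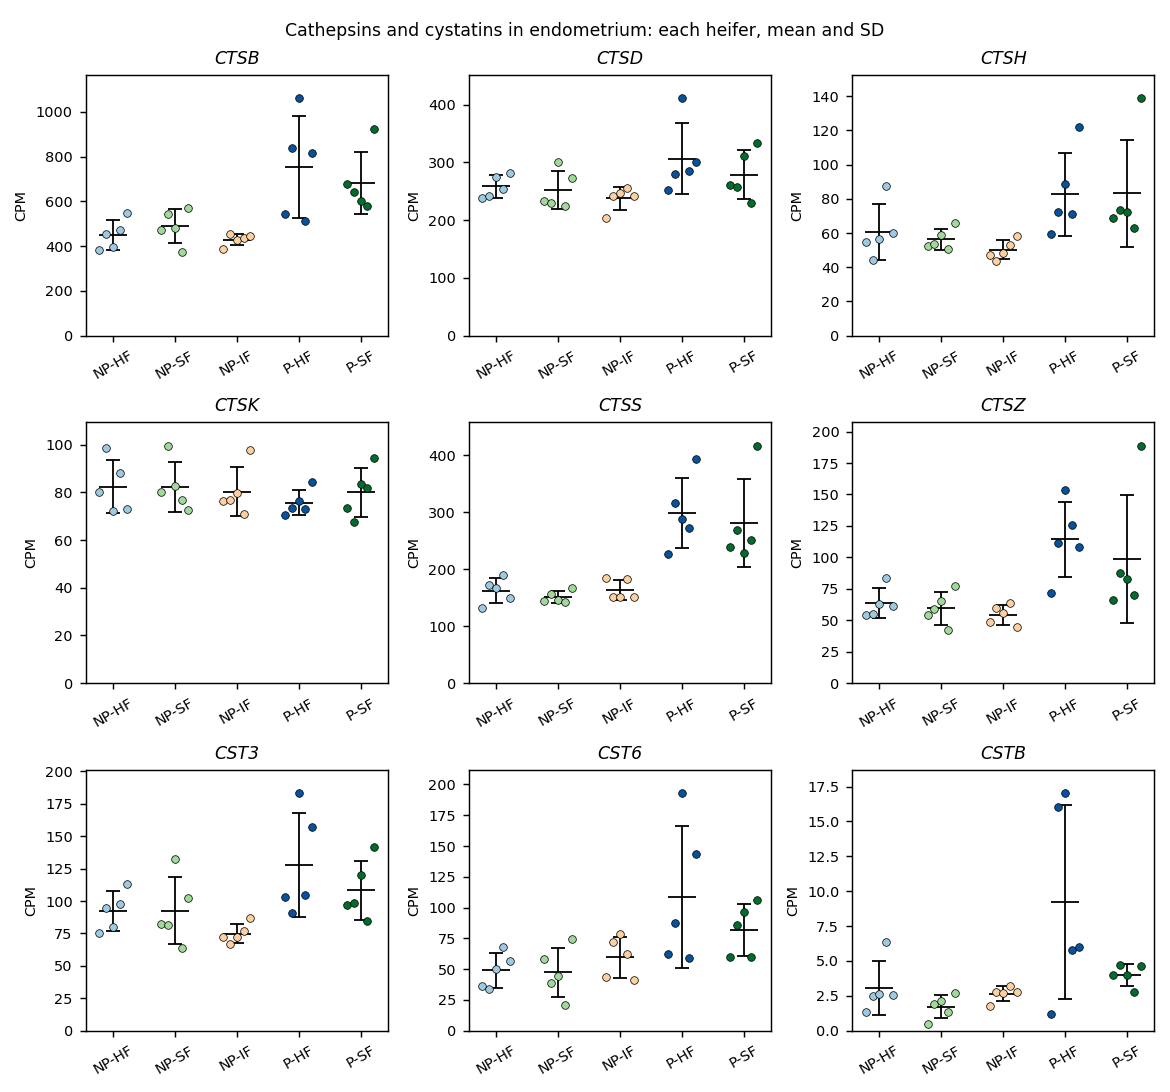
Level of each of the 9 genes in the 25 endometrial libraries, in CPM on linear axes that start at 0; each point is 1 heifer, and the bars give the mean and SD of the 5 heifers of a group. CTSS in the pregnant groups starts at 226 CPM, above the 190 CPM that no non-pregnant animal exceeded, while CTSK is level across the 5 groups.

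CTSH, an aminopeptidase, had 1 high library in NP-HF. Its values were 54.7, 44.2, 56.3, 87.7 and 60.3 CPM in NP-HF and 59.5, 72.2, 88.5, 71.3 and 122 CPM in P-HF. The difference of 0.45 ± 0.20 did not pass (adjusted p = 0.122), but it was 0.62 (adjusted p = 0.0338) without NP-HF replicate 4, the 87.7 CPM library. In SF, CTSH was 52.6, 53.5, 58.7, 50.4 and 65.9 CPM without pregnancy and 68.7, 73.7, 72.4, 62.7 and 139 CPM with it, a difference of 0.57 ± 0.20 (adjusted p = 0.131) that was 0.30 (adjusted p = 0.504) without P-SF replicate 5. CTSH passed in the mean pregnancy change of the 2 classes, described further on.

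CTSD, the lysosomal aspartic protease, and CTSK, a collagen-degrading protease best known from osteoclasts, differed little. CTSD had means of 258.3 ± 19.4 CPM (SD, n = 5) in NP-HF and 306.1 ± 61.4 CPM in P-HF, and of 252.3 ± 33.6 and 278.4 ± 42.5 CPM in NP-SF and P-SF. The log2 difference of CTSD was 0.25 ± 0.12 in HF (adjusted p = 0.149) and 0.14 in SF (adjusted p = 0.598). One P-HF library, replicate 3 at 411 CPM, was above all other endometrial libraries for CTSD. CTSK was the only member with a lower mean in pregnancy in both classes, 82.4 ± 11.2 CPM in NP-HF against 75.6 ± 5.26 CPM in P-HF and 82.3 ± 10.3 CPM in NP-SF against 80.1 ± 10.2 CPM in P-SF. Those differences, -0.12 ± 0.11 and -0.04 on the log2 scale, were within the spread of the groups (adjusted p = 0.445 and 0.899).

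Of the inhibitors, CST6 (cystatin E/M), a secreted cystatin of epithelia that also blocks the asparaginyl protease legumain, spread widely in pregnant HF heifers. It was 36.3, 33.6, 50.5, 68.0 and 56.5 CPM in NP-HF and 62.7, 87.2, 193, 59.0 and 143 CPM in P-HF. P-HF replicates 3 and 5 were far above the others, and 2 lay within the non-pregnant range. CST6 rose by 1.15 ± 0.33 (adjusted p = 0.0134), and the change was 0.85 (adjusted p = 0.0647), no longer called, without P-HF replicate 3. In SF it was 57.9, 39.0, 44.3, 21.0 and 74.2 CPM without pregnancy and 59.8, 85.7, 96.8, 59.6 and 106 CPM with it, a difference of 0.79 ± 0.32 (adjusted p = 0.197).

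CSTB, a cystatin of the cytosol and nucleus without a secretion signal, was near the lower end of what the libraries measured. It was 1.32, 2.45, 2.65, 6.38 and 2.52 CPM in NP-HF and 1.18, 16, 17, 5.79 and 6 CPM in P-HF. The P-HF animals thus split from below the lowest NP-HF value to above the highest. The change of 1.59 ± 0.49 was called (adjusted p = 0.0229), but not with limma-voom (1.33, adjusted p = 0.0838), not in a fit of the 2 groups alone (1.57, adjusted p = 0.104), and not without any of NP-HF replicate 1, NP-HF replicate 2, P-HF replicate 2 or P-HF replicate 3 (adjusted p = 0.0619, 0.057, 0.075 and 0.0886). In SF, CSTB was 0.493, 1.89, 2.15, 1.37 and 2.71 CPM without pregnancy and 4.02, 4.72, 3.96, 2.74 and 4.62 CPM with it. These ranges did not overlap, which held for 5.56% of all genes, and the difference did not pass (1.22 ± 0.50, adjusted p = 0.197).

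The count table holds a second cystatin B row, CSTB-2, and the symbol CSTB is a synonym of 2 neighbouring genes in the RefSeq table for ARS-UCD2.0, so that the division of reads between the rows is uncertain. The CSTB-2 row had means of 97.7 CPM in NP-HF, 178.1 CPM in P-HF, 82.0 CPM in NP-SF and 127.6 CPM in P-SF. With both rows summed, the CSTB change was 0.89 (adjusted p = 0.0151) in HF and 0.65 (adjusted p = 0.176) in SF.

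CST3 (cystatin C), the secreted cystatin of most body fluids, was 75.4, 94.9, 79.9, 97.9 and 113 CPM in NP-HF and 103, 90.9, 183, 105 and 157 CPM in P-HF. The groups overlapped through P-HF replicates 1, 2 and 4, and the difference of 0.47 ± 0.19 did not pass (adjusted p = 0.0827). It was 0.57 (adjusted p = 0.0428) without P-HF replicate 2. In SF the CST3 difference was 0.23 (adjusted p = 0.599), with values of 82.4, 81.8, 132, 64.2 and 102 CPM against 97.0, 98.5, 120, 84.6 and 142 CPM.

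**Figure D2:**
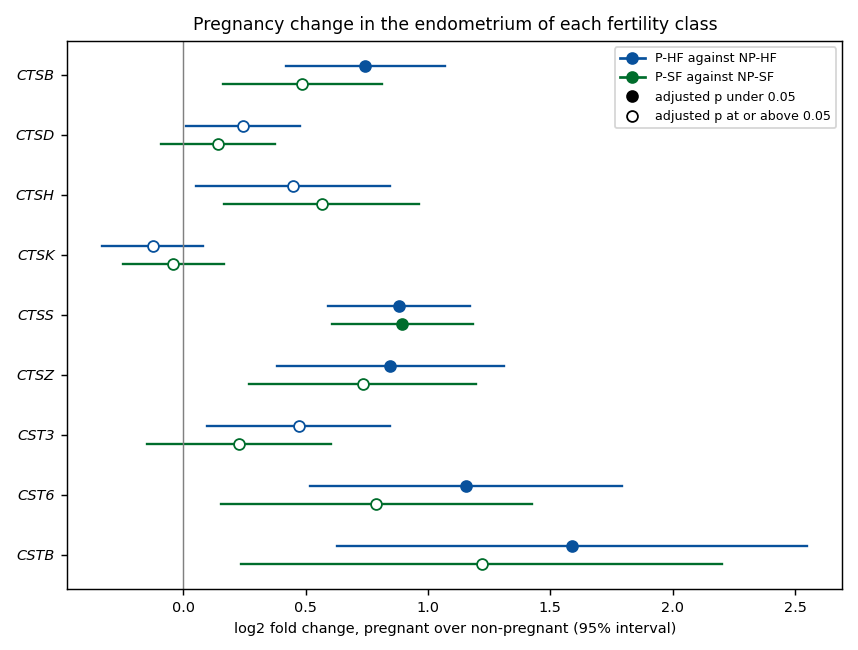
Log2 fold change of each gene, pregnant over non-pregnant, in HF and in SF heifers, with 95% intervals. CTSS lies at 0.88 and 0.89 in the 2 classes, and CTSK lies at or just below 0 in both.

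In all, 5 of the 9 genes rose and 0 fell in P-HF against NP-HF, where 20.8% of the 19606 genes tested were called in either direction and 10.2% were called higher. The median log2 difference was 0.74 for the 9 genes and -0.01 for all genes. The members and the lists below were chosen with earlier results of these data known. Their counts and medians beside those of all genes are therefore descriptions, not a test of the set. In P-SF against NP-SF, 1 of 9 rose, CTSS, where 4.07% of genes were called and 3.18% were called higher, and the medians were 0.57 and -0.01. In each class 8 of the 9 differences were positive. At an unadjusted p under 0.05 there were 8 members in HF, against 33.4% of all genes, and 6 in SF, against 16.9%. Without both libraries that stood apart, 7 members were called in HF, with CTSH at 0.55 (adjusted p = 0.0166) and CST3 at 0.54 (adjusted p = 0.0471) added, and CTSS was the 1 member called in SF. That omission was chosen after seeing the data. From the HF groups it takes out only P-HF replicate 1, the lowest P-HF library for CTSD, CTSH, CTSK, CTSS, CTSZ and CSTB. This by itself raises the pregnant mean of these genes, so the added calls are no independent evidence.

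Over the mean of the 2 classes, where 25.1% of genes were called and 12.9% were called higher, 6 members rose. CTSS changed by 0.89 ± 0.10 (adjusted p = 9.55e-07), CTSB by 0.62 ± 0.12 (adjusted p = 0.000414) and CTSZ by 0.79 ± 0.17 (adjusted p = 0.00118). CST6 changed by 0.97 ± 0.23 (adjusted p = 0.0029), CSTB by 1.40 ± 0.35 (adjusted p = 0.00448) and CTSH by 0.51 ± 0.14 (adjusted p = 0.0111). CST3 at 0.35 ± 0.14 (adjusted p = 0.0597) and CTSD at 0.19 (adjusted p = 0.0937) stayed short of the threshold, and CTSK was -0.08 (adjusted p = 0.461). CST3 was called in 6 of the fits that left out 1 library and CTSD in 2 of them (those without NP-SF replicate 3 and without P-HF replicate 1). With library totals in place of TMM, CTSK was called lower, at -0.18 (adjusted p = 0.0356), a scaling that moved all genes of this comparison by -0.10 on the log2 scale. The cysteine cathepsins CTSB, CTSH, CTSS and CTSZ and the inhibitors CST6 and CSTB thus moved in the same direction.

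Whether pregnancy acted differently in the 2 classes was tested as an interaction, and for none of the 9 genes did it reach even an unadjusted p of 0.05, as 6.81% of all genes did. One gene of all tested was called (0.0051%). The interaction was 0.01 ± 0.21 for CTSS, with a 95% interval of -0.39 to 0.42, -0.26 ± 0.23 for CTSB and -0.37 ± 0.46 for CST6. The larger number of members called in HF than in SF is thus not shown to be a difference between the classes.

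Markers of some cell types moved in the same comparisons. Over all genes, 10.2% rose in P-HF and 10.6% fell, against 3.18% and 0.887% in P-SF. Of 12 macrophage and monocyte markers, 7 rose in P-HF and 5 in P-SF, with median log2 differences of 0.85 and 0.82, among them C1QB (2.03 ± 0.30 in HF, adjusted p = 3.64e-05). Their summed level was 126.1 to 197 CPM in NP-HF and 215.4 to 456.4 CPM in P-HF, 119.5 to 179.9 CPM in NP-SF and 183.1 to 437.2 CPM in P-SF, and none of the 12 was at 0 in any endometrial library. The summed level of 9 epithelial markers was 1109 to 1403 CPM in NP-HF and 1595 to 1870 CPM in P-HF, 969.8 to 1491 CPM in NP-SF and 1352 to 1635 CPM in P-SF. The 8 stromal markers summed to 12840 to 24730 CPM in NP-HF and 5192 to 8542 CPM in P-HF, with 5 of 8 called lower, and to 10990 to 16400 CPM and 9905 to 12490 CPM in NP-SF and P-SF, with none called. The 7 markers of T and NK cells had 1 rise and 1 fall in P-HF and 0 calls in P-SF. Their median log2 differences were 0.47 and 0.45. They summed to 23.05 to 47.75 CPM in NP-HF and 21.93 to 44.52 CPM in P-HF. In NP-SF and P-SF the sums were 18.3 to 33.85 CPM and 27.93 to 38.01 CPM. The 5 endothelial markers had 0 rises and 2 falls in P-HF, and 0 calls in P-SF. All 20 interferon-stimulated genes rose in both classes, with median log2 differences of 4.80 in HF and 4.20 in SF. The part of these cell types in the cathepsin and cystatin changes was not tested.

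Other genes of the same system were read from lists, whose counts stand against the 20.8% of all genes called in HF (10.2% higher, 10.6% lower) and the 4.07% called in SF. Of 7 other cathepsins tested, CTSC, the dipeptidyl peptidase that activates granule proteases, rose by 0.64 ± 0.16 in P-HF against NP-HF (adjusted p = 0.00462). CTSA, the protective protein of lysosomal sialidase, rose by 0.51 ± 0.16 (adjusted p = 0.0226), and CTSV, a close relative of CTSL, by 0.51 ± 0.17 (adjusted p = 0.0301). CTSF fell by 0.26 on the log2 scale (adjusted p = 0.0192). None of the 7 was called in P-SF against NP-SF, where CTSC was at 0.36 (adjusted p = 0.228). None of 3 other cystatins and kininogens passed the test in either class.

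Of 24 genes for the lysosomal membrane, its proton pump and its control, 10 rose and 0 fell in P-HF (median 0.20), with NPC1, the cholesterol exporter, at 0.57 ± 0.12 (adjusted p = 0.00195) and the pump subunit ATP6V1E1 at 0.53 ± 0.12 (adjusted p = 0.00258). One of the 24 rose in P-SF, TMEM192 (0.32 ± 0.08, adjusted p = 0.0194). Of 29 lysosomal hydrolases and their activators, 5 rose and 2 fell in P-HF, a share near that of all genes, and the list's median log2 difference was 0.03 against -0.01 for all genes. PSAP, the saposin precursor, rose by 0.78 ± 0.17 (adjusted p = 0.0016), and NAAA fell by 0.54 on the log2 scale (adjusted p = 0.0088). LIPA, the acid lipase, rose in both classes, by 0.73 ± 0.17 in HF (adjusted p = 0.00419) and by 0.93 ± 0.17 in SF (adjusted p = 0.00169), and was the 1 hydrolase called in SF. Of 10 genes that sort enzymes to the lysosome, 3 rose and 1 fell in P-HF, with the sorting receptors SORT1 at 0.63 ± 0.11 (adjusted p = 0.000407) and M6PR at 0.30 ± 0.06 (adjusted p = 0.000782), and 0 of 10 were called in P-SF. The median of the 10 was 0.27 in HF and -0.02 in SF.

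The MHC class II pathway, in which CTSS has its best-known task, had 2 of 7 genes called higher in P-HF and 4 of 7 in P-SF, and 0 lower in either. CD74, the invariant chain that CTSS trims, rose by 0.61 ± 0.18 in HF (adjusted p = 0.0176) and by 0.65 ± 0.18 in SF (adjusted p = 0.039). BOLA-DMB, part of the peptide exchanger, rose by 1.26 ± 0.26 in HF (adjusted p = 0.00123) and by 1.49 ± 0.26 in SF (adjusted p = 0.000713). BOLA genes have close copies, and their read assignment is uncertain.

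Between fertility classes of the same pregnancy state, no endometrial gene passed the edgeR test. With 5 animals per group this does not show that the classes are alike. Among pregnant animals 0 of 19606 genes were called between P-SF and P-HF (0% called) with edgeR, 10.1% had an unadjusted p under 0.05, and DESeq2 called 96. The 1 member with an unadjusted p under 0.05 was CSTB, at -1.20 ± 0.48 (adjusted p = 0.422, 95% interval -2.14 to -0.25). CTSS differed by -0.09 ± 0.15 (95% interval -0.38 to 0.20) and CTSB by -0.14 ± 0.17 (95% interval -0.47 to 0.18). CTSZ was -0.21 ± 0.24 (adjusted p = 0.805) with all libraries, and -0.70 (adjusted p = 0.0243) without P-SF replicate 5 and P-HF replicate 1, when 634 genes were called in all. That omission was chosen after seeing the data. It takes out the highest P-SF and the lowest P-HF library for CTSZ, which by itself makes the difference more negative.

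Among non-pregnant animals no gene was called with edgeR in NP-SF against NP-HF, NP-IF against NP-HF or NP-IF against NP-SF (0% in each), with 3.62%, 5.46% and 4% of genes at an unadjusted p under 0.05 and 1, 2 and 11 genes called by DESeq2. No member had an unadjusted p under 0.05 in these. CST3 had its lowest mean in NP-IF, 74.8 ± 7.5 CPM (SD, n = 5) against 92.3 ± 15.2 CPM in NP-HF and 92.6 ± 26 CPM in NP-SF. The CST3 difference from NP-HF was -0.30 ± 0.19 (adjusted p = 0.947, 95% interval -0.68 to 0.07). CST6 had its highest non-pregnant mean in NP-IF, 59.5 ± 16.9 CPM against 49.0 ± 14.3 CPM in NP-HF (0.28 ± 0.32, adjusted p = 0.977). The intervals of both genes include 0.

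Ordered by their means, the 2 pregnant groups stood highest in the endometrium for 8 of the 9 genes, and for CTSK they stood lowest. For CTSS the order was P-HF, P-SF, NP-IF, NP-HF and NP-SF, and only the step from P-SF to NP-IF separated groups that did not overlap. For CTSB the order was P-HF, P-SF, NP-SF, NP-HF and NP-IF, again with the 1 break without overlap between P-SF and NP-SF. CTSD, CTSH, CTSK, CTSZ, CST3, CST6 and CSTB had no such break between neighbours.

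Across the 25 endometrial libraries the members other than CTSK varied together, with a Pearson r of log2(CPM + 1) between 0.547 (CST3 and CSTB) and 0.872 (CTSD and CST3). CTSK stood apart, at -0.189 to 0.104 with the other 8. These correlations are descriptions over libraries that share pregnancy state and scaling. Among the 13485 genes that averaged 5 CPM or more, the most alike to CTSS were LOC783680 (r = 0.973), B2M (0.972), the light chain of MHC class I, and CASP4 (0.966). The most alike to CTSB was DNASE2, the lysosomal DNase (0.950), and to CTSK it was TIMP1, an inhibitor of matrix proteases (0.773). CST6 was most like LOC104976285 (0.988) and PSAP (0.887). LOC104976285 was also near CST6 in level, at 35.7 against 36.3 CPM in NP-HF replicate 1 and 163.3 against 193 CPM in P-HF replicate 3. Whether the rows of CST6 and LOC104976285 share reads was not tested. CTSH was most like SERPING1 (0.892), CTSD like SNRPD2 (0.908), CTSZ like HMGA1 (0.935), CST3 like COX7A2 (0.886) and CSTB like TKT (0.886).

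The 2 tissues differed in which members they carried, although each had its own RNA extraction reagent and no test was made. Over all 27 conceptuses CTSS averaged 2.83 CPM (0.104 to 24.5 CPM), against 289.5 CPM (225.7 to 416.2 CPM) in the 10 pregnant endometria, 103-fold lower with scaling within each tissue and 48.8-fold lower with TMM over all 52 libraries. CTSS ranges did not overlap under either scaling. The CTSS mean over conceptuses rests in part on the 24.5 and 11.1 CPM of 2 conceptuses from 1 recipient, and without this pair it was 1.63 CPM, 178-fold lower than in endometrium with scaling within tissues. CTSK was 15.7-fold lower (4.97 against 77.8 CPM), CST6 14.7-fold lower (6.46 against 95.3 CPM) and CTSZ 8.61-fold lower (12.4 against 106.6 CPM), and with TMM over all libraries these ratios were 7.29, 6.97 and 4 and the ranges overlapped. Without the same pair CST6 was 21.9-fold lower within tissues. CSTB went the other way, at 27.5 CPM in conceptuses and 6.61 CPM in pregnant endometrium, 4.16-fold higher with scaling within tissues and 8.95-fold higher with TMM over all libraries. Its ranges overlapped within tissues (9.01 to 79.2 CPM in conceptuses, 1.18 to 17.0 CPM in pregnant endometrium). They did not overlap with TMM over all libraries. The CSTB-2 row was 170.9 CPM in conceptuses and 152.9 CPM in pregnant endometrium, 1.12-fold higher within tissues and 2.4-fold higher over all libraries. The division of reads between the rows is uncertain, so the CSTB ratio may depend on it.

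For CTSB, CTSD, CTSH and CST3 the comparison of tissues turned on the scaling. The ratio of conceptus to pregnant endometrium was 0.487 for CTSB within tissues and 1.05 over all libraries, 0.421 and 0.903 for CTSD, 0.383 and 0.823 for CTSH, and 1.08 and 2.31 for CST3. CTSL, a relative that was not a member, had 993.5 CPM in conceptuses and 5.65 CPM in pregnant endometrium, while CTSV was 122.5 and 483.5 CPM. CTSL and CTSV are close copies, and their reads may have been split between them.

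Among conceptuses, CTSH was higher on average in those of SF recipients than in the long HF ones. CTSH was 20.9 to 77.8 CPM in C-SF (median 45.3 CPM), 13.6 to 35.9 CPM in C-HF-long (median 23.2 CPM) and 20.5 to 43.3 CPM in C-HF-short (median 23.2 CPM). The C-SF conceptus was the higher in 87% of the pairs that can be formed between C-SF and C-HF-long, and the ranges overlapped. CTSH was higher in C-SF than in C-HF-long by 0.85 ± 0.21 (adjusted p = 0.0173). It was the 1 member called, where 8.9% of 16330 genes were called, 3.8% higher and 5.1% lower. Without C-SF replicate 2, which had the highest CTSH and CTSK, the difference was 0.69 (adjusted p = 0.0488). In the 20 conceptuses of the first numbering series alone it was 0.90 (adjusted p = 0.019). With columns matched to the description fields instead of the titles it was 0.53 (adjusted p = 0.434), so that the call rests on the titles.

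Against C-HF-short, CTSH in C-SF was higher by 0.67 ± 0.24 (adjusted p = 0.365, 84.3% of pairs), a comparison in which 1 gene of 16330 was called (0.00612%) and 8.99% had an unadjusted p under 0.05. CTSH was 1 of 3 members with an unadjusted p under 0.05 there. The others were CSTB (0.78 ± 0.27, adjusted p = 0.344) and CTSK (1.62 ± 0.66, adjusted p = 0.451). The C-SF conceptuses were shorter than C-HF-long where lengths are known, with medians of 4 and 12 cm, and the part of length in the CTSH difference was not tested. On length itself CTSH had a slope of -0.18 ± 0.14 per doubling (adjusted p = 0.598).

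**Figure D3:**
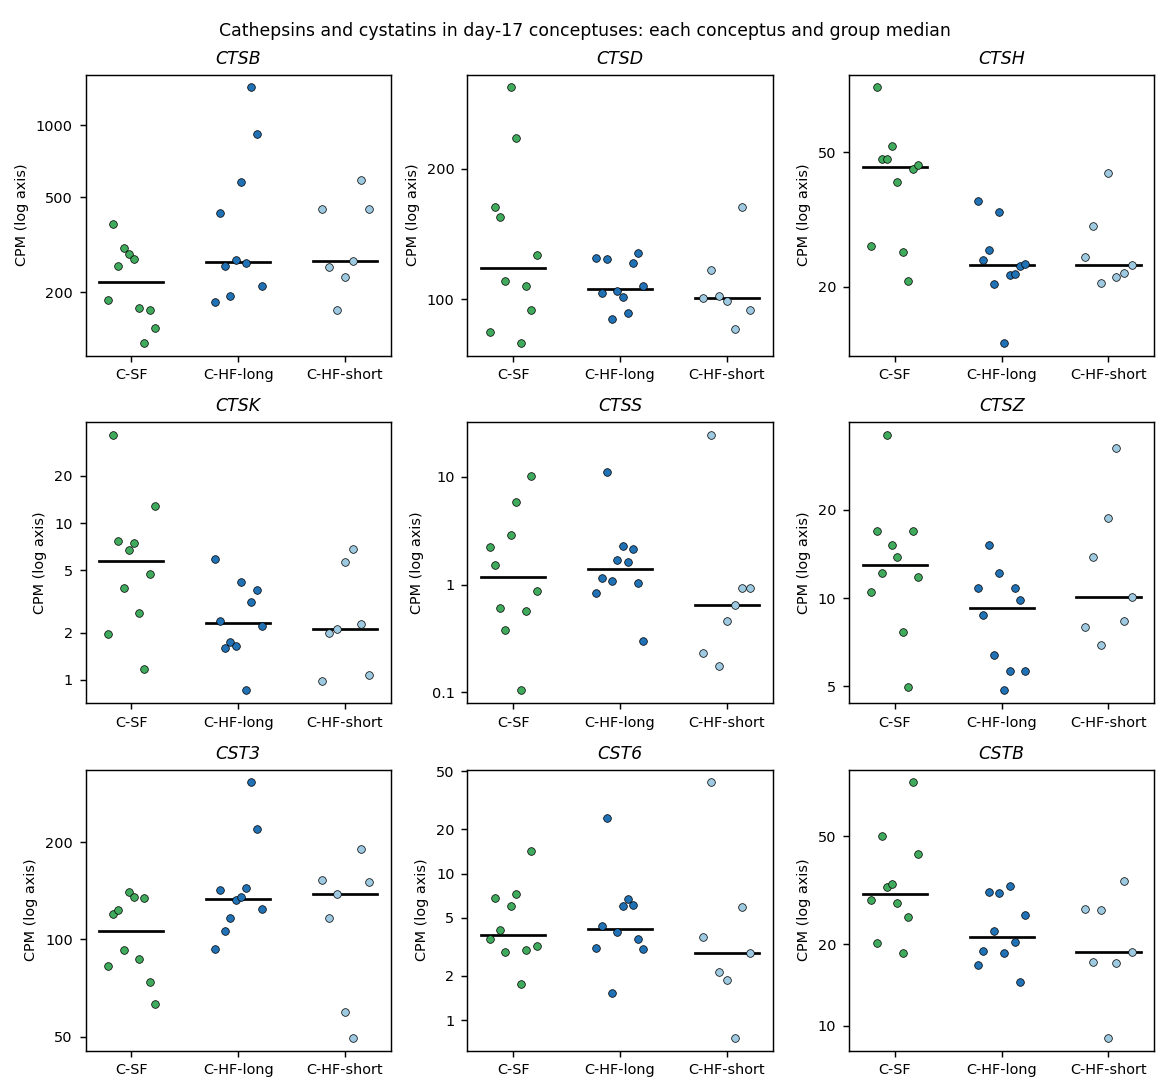
Level of each of the 9 genes in the 27 conceptuses, in CPM on log axes, by group; each point is 1 conceptus and the line is the group's median. CTSH in C-SF has a median of 45.3 CPM against 23.2 CPM in both HF groups, and single conceptuses stand far above the rest for CTSS, CST6, CTSK and CTSB.

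CTSK showed the widest single excursion in C-SF. It was 1.18 to 36.6 CPM there (median 5.76 CPM), 0.857 to 5.89 CPM in C-HF-long (median 2.29 CPM) and 0.992 to 6.86 CPM in C-HF-short (median 2.13 CPM). The 36.6 CPM belonged to C-SF replicate 2, and the next highest of that group was 12.8 CPM. CTSK differed by 1.59 ± 0.52 from C-HF-long (adjusted p = 0.0526), close to the threshold. CTSK was called in 6 of 15 alternatives: with DESeq2 (adjusted p = 0.0183), at a minimum count of 50 (0.0454), with only the groups compared (0.0469), without the numbering series (0.0435), in the first series alone (0.0337) and with 1 conceptus per recipient (0.0439). It was not called with limma-voom (adjusted p = 0.219), library totals (0.0731), DESeq2's size factors in edgeR (0.0525), no filter, the recipient as a random block or columns matched to the descriptions. Nor was it called without C-HF-long replicate 8 or without both conceptuses of the recipient of C-HF-long replicate 3. The highest adjusted p among the alternatives was 0.457. Without C-SF replicate 2 the CTSK difference was 0.75 (adjusted p = 0.289).

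CTSB pointed the other way. It was 123 to 386 CPM in C-SF (median 221.5 CPM), 182 to 1441 CPM in C-HF-long (median 267.9 CPM) and 169 to 588 CPM in C-HF-short (median 269.2 CPM). C-HF-long replicate 8 at 1441 CPM and replicate 9 at 915 CPM lay above every other conceptus. The CTSB difference of C-SF from C-HF-long was -0.98 ± 0.36 (adjusted p = 0.0819, called by DESeq2 at 0.0444), and it was -0.61 (adjusted p = 0.228) without C-HF-long replicate 8.

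The remaining members overlapped widely between C-SF and C-HF-long and were not called. CTSD was 79.3 to 308 CPM in C-SF (median 118.1 CPM) and 90.2 to 128 CPM in C-HF-long (0.48 ± 0.20, adjusted p = 0.118), and its 2 highest values, 308 and 235 CPM, were C-SF replicates 5 and 6. CTSZ was 4.98 to 36.0 CPM in C-SF and 4.84 to 15.1 CPM in C-HF-long (0.67 ± 0.32, adjusted p = 0.178). CSTB was 18.6 to 79.2 CPM in C-SF (median 30.8 CPM) and 14.5 to 32.9 CPM in C-HF-long (median 21.4 CPM), a difference of 0.53 ± 0.25 (adjusted p = 0.183). With both cystatin B rows summed, the CSTB difference was 0.44 (adjusted p = 0.0289). CST3 was 63.2 to 141 CPM in C-SF (median 106.4 CPM) and 93.5 to 306 CPM in C-HF-long (median 133.6 CPM), at -0.45 ± 0.24 (adjusted p = 0.233). CTSS and CST6 differed by 0.50 ± 1.0 and 0.07 ± 0.65.

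Of the 9 genes, 6 had an unadjusted p under 0.05 between C-SF and C-HF-long, against 27% of all genes. Between C-HF-short and C-HF-long no gene was called with edgeR (0%), 3.67% had an unadjusted p under 0.05, DESeq2 called 13, and no member had an unadjusted p under 0.05. The members' differences there ran from -0.27 (CTSB) to 0.88 (CTSS), with 0.933 the lowest adjusted p.

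Counts from the related lists in C-SF against C-HF-long stand against 3.8% of all genes called higher and 5.1% called lower. Of 7 other cathepsins 2 were called higher and 0 lower, CTSC (0.49 ± 0.09, adjusted p = 0.00893) and CTSV (0.64 ± 0.20, adjusted p = 0.0488). FETUB, a cystatin-like plasma protein, rose by 0.96 ± 0.27 (adjusted p = 0.0283), as 1 of 5 cystatins and kininogens. Of 29 hydrolases 5 were higher and 0 lower, led by ASAH1, the acid ceramidase (0.82 ± 0.18, adjusted p = 0.0109). Of 24 membrane and pump genes 0 were higher and 1 was lower, ATP6V0A1 (-0.62 ± 0.14, adjusted p = 0.0122). IFI30, a lysosomal thiol reductase, was higher by 1.27 ± 0.20 (adjusted p = 0.00821). Of 11 trophectoderm markers 3 were called lower in C-SF, GATA3 (-1.35 ± 0.27, adjusted p = 0.00928), GATA2 and TFAP2C, and 4 of 8 stromal markers were called lower. The part of cell composition in the CTSH difference was not tested.

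CTSB and CST3 were the members that increased most with conceptus length, but 1 recipient carried this. Over the 20 conceptuses with a length, the slope per doubling of length was 0.48 ± 0.21 for CTSB (adjusted p = 0.419) and 0.38 ± 0.13 for CST3 (adjusted p = 0.351). CTSZ had a slope of -0.45 ± 0.21 (adjusted p = 0.439). No gene was called with edgeR (0%), 11.1% had an unadjusted p under 0.05, and these 3 members were among them. The 17 cm conceptus, C-HF-long replicate 8, and the 2.8 cm one of the same recipient, C-HF-short replicate 6, were the highest of their groups in both genes, with CTSB at 1441 and 588 CPM and CST3 at 306 and 190 CPM. Without both, the CTSB slope was -0.18 (adjusted p = 0.79) and the CST3 slope 0.16 (adjusted p = 0.789). Their summed macrophage markers, 56.0 and 51.1 CPM, were the highest of all conceptuses, where the sum began at 6.39 CPM. The leukocyte marker PTPRC was 0.036 and 0.047 CPM in the same conceptuses, below the conceptus median of 0.0918 CPM. The part of immune cells in these levels was not tested.

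**Figure D4:**
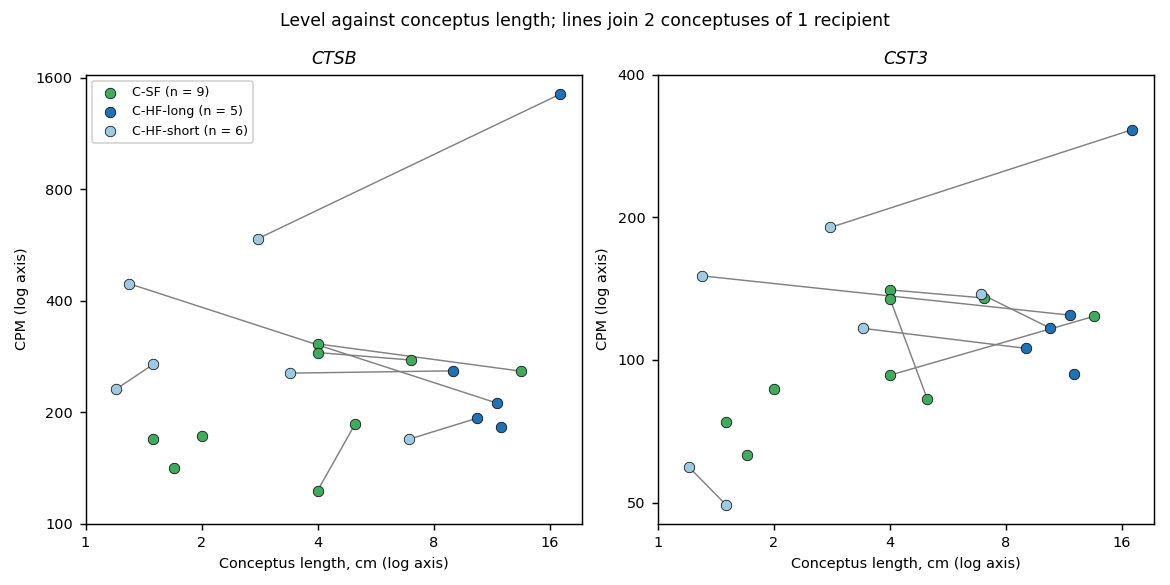
CTSB and CST3 levels (CPM, log axis) against conceptus length (cm, log axis) for the 20 conceptuses with a length, coloured by group, with lines joining 2 conceptuses of 1 recipient. The joined pair at 2.8 and 17 cm lies above the rest, with CTSB at 588 and 1441 CPM.

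Both conceptuses of 8 recipients were measured, which allowed long and short ones to be compared within a uterus. The longer of the 2 had more CTSK and more CTSS in 6 of 8 pairs, more CTSB, CST6 and CSTB in 5, more CTSZ in 4, more CTSD and CTSH in 3 and more CST3 in 2. No gene of 17880 was called (0%) and 4.21% had an unadjusted p under 0.05, with no member among them. CTSK differed by 0.38 ± 0.20, CTSS by 0.64 ± 0.40 and CTSB by 0.12 ± 0.20, each with an adjusted p of 0.991 and intervals that include 0.

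CTSS and CST6 were low in most conceptuses and high together in a few. CTSS was 0.104 to 10.2 CPM in C-SF (median 1.19 CPM), 0.299 to 11.1 CPM in C-HF-long (median 1.38 CPM) and 0.177 to 24.5 CPM in C-HF-short (median 0.641 CPM). CST6 was 1.77 to 14.3 CPM in C-SF (median 3.84 CPM), 1.52 to 23.9 CPM in C-HF-long (median 4.18 CPM) and 0.755 to 41.9 CPM in C-HF-short (median 2.88 CPM). The same 3 conceptuses held the highest values of their groups for both genes. They were C-HF-long replicate 3 (9 cm) and C-HF-short replicate 2 (3.4 cm), which shared a recipient, and C-SF replicate 9. Pearson's r of log2(CPM + 1) between CTSS and CST6 was 0.896 over the 27 conceptuses and 0.662 over the 24 others, as a description.

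The 3 conceptuses also stood high in LGMN, the legumain that CST6 inhibits, at 87.1, 151.8 and 85.8 CPM against group medians of 36.3, 34.5 and 30.7 CPM. LOC104976285, whose sharing of reads with CST6 was not tested, was 30.1, 53.7 and 23.1 CPM in them. LOC104976285 was the gene most like CST6 in conceptuses as in endometrium (r = 0.981 of log2(CPM + 1) among 9900 genes), and LGMN was next in conceptuses (0.934). Without the 3 conceptuses these values were 0.947 and 0.852. The pair from 1 recipient had the highest summed interferon-stimulated genes of all conceptuses, 246 and 421.1 CPM. Markers of uterine cells summed to 15.1 and 19.8 CPM in the pair and to 29.0 CPM in C-SF replicate 9, the highest of all, where conceptuses began at 3.53 CPM and pregnant endometrium ran from 3931 to 8357 CPM. Immune markers did not run one way in the 3 conceptuses: PTPRC was 0.611, 0.830 and 3.92 CPM, with 1.40 CPM in C-SF replicate 6, while the summed macrophage markers of the pair, 7.22 and 6.39 CPM, were the lowest of all 27 conceptuses, and those of C-SF replicate 9 were 11.8 CPM. The part of uterine or immune cells in these levels was not tested.

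**Figure D5:**
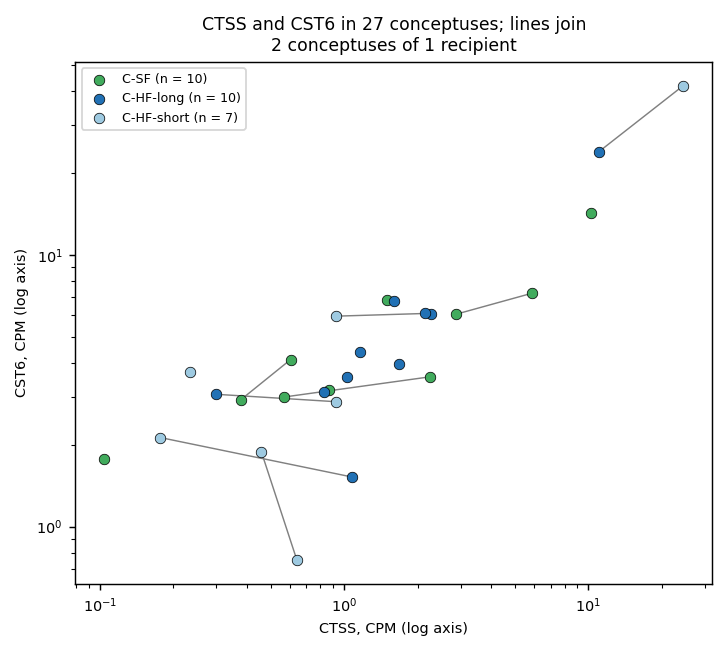
CST6 against CTSS in the 27 conceptuses, in CPM on log axes, coloured by group, with lines joining 2 conceptuses of 1 recipient. The conceptus with 24.5 CPM of CTSS has 41.9 CPM of CST6, and its partner from the same recipient has 11.1 and 23.9 CPM.

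Other pairs of members that varied together in conceptuses were CTSH and CTSK (r = 0.719, and 0.602 without C-SF replicate 2), CTSB and CST3 (0.702, and 0.548 without both conceptuses of the recipient of C-HF-long replicate 8) and CTSH and CTSZ (0.620). Among the most alike genes were MFGE8 for CTSB (0.925), CALB1 for CTSH (0.834), B3GNT8 for CTSK (0.815), PIK3R3 for CTSS (0.937), IMPA2 for CST3 (0.906), PDE1B for CSTB (0.829) and MOV10 for CTSD (0.798). CTSB was also close to SCPEP1, a lysosomal carboxypeptidase (0.908).

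For 8 recipients both the endometrium and conceptuses were sequenced. Between the level in the dam and the mean level in the dam's conceptuses, Pearson's r ran from -0.493 (CTSK, exact permutation p = 0.22) to 0.238 (CST6, exact permutation p = 0.561). None of the 9 relations passed, with 0.968 the lowest adjusted p by Pearson and 0.854 by Spearman. Leaving out the 2 dams farthest from the median gave r from -0.734 (CTSB) to 0.689 (CTSS), so that 8 recipients do not fix these values.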

How the data were processed

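Whole-number read counts per gene for 52 libraries, not normalized, were used as deposited. A stranded mRNA kit was used, and the extraction reagent differed between endometrium and conceptus, per the labels' protocols. HISAT2, StringTie, edgeR and the build UMD3.1 are named in the submitters' processing notes. Versions and the use of strand in counting are not stated there. Rows without a gene name (1020) were left out, and no coordinates or sequences were used. RefSeq ARS-UCD2.0 gave names and neighbours: 8 of the 9 symbols matched, and CSTB matched as a synonym.

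The counts were filtered with filterByExpr (minimum count 10, minimum total 15), scaled by TMM and tested with edgeR 4.0.16 in R 4.3.3 (quasi-likelihood, Benjamini-Hochberg). Endometrium was fitted with 5 groups in 25 libraries. Conceptuses were fitted with 3 groups in 27 libraries and a term for the 2 numbering series of the description fields (3 C-SF, 4 C-HF-short and 0 C-HF-long in the second), on log2 length in 20 conceptuses (17196 genes), and within 8 recipients that share 2 conceptuses (the recipient is the block in that fit). Conceptuses of 1 recipient are otherwise treated as separate. Where SD is not written, ± gives an SE derived from the log2 fold change and its F statistic. Endometrial libraries came from separate animals, per the titles. DESeq2 1.42.0, limma-voom (limma 3.58.1), other scalings, filters, designs, single libraries left out and column matching were alternatives.

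The members and lists were chosen with earlier results of these data known. Named genes were all members, up to 4 called genes per list with the smallest p, and the 3 genes most like each member, of which some are printed. Replicate numbers follow the order of deposit and pair nothing.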

Additional observations from a re-analysis of the deposited data

Results flagged for a closer look

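In 16 of 72 sets of 1 gene in 1 group, the highest or lowest library lay farther from its neighbour than Dixon's limit allows, a limit that chance passes in about 1 of 20 sets. The sets are not independent, since several come from the same library.

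P-SF replicate 5 was far above the other pregnant SF heifers in 4 cathepsins: CTSB at 923 CPM with the next at 677 CPM, CTSH at 139 CPM with the next at 73.7 CPM, CTSS at 416 CPM with the next at 269 CPM, and CTSZ at 189 CPM with the next at 87.8 CPM. In the other endometrial groups, CSTB in NP-HF replicate 4 was 6.38 CPM with the next at 2.65 CPM, and CTSD in NP-IF replicate 1 was low, at 204 CPM with the next lowest at 242 CPM.

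Among conceptuses, the recipient of C-HF-long replicate 3 and C-HF-short replicate 2 gave 4 of the cases. CTSS was 11.1 CPM in the long conceptus (next 2.27 CPM) and 24.5 CPM in the short one (next 0.923 CPM), and CST6 was 23.9 CPM (next 6.75 CPM) and 41.9 CPM (next 5.94 CPM). C-SF replicate 9 had CST6 at 14.3 CPM (next 7.22 CPM) and CSTB at 79.2 CPM (next 50.1 CPM). CTSK in C-SF replicate 2 was 36.6 CPM (next 12.8 CPM) and CTSZ in C-SF replicate 4 was 36 CPM (next 16.9 CPM). In C-HF-short, CTSD was 163 CPM in replicate 6 (next 117 CPM) and CTSH was 43.3 CPM in replicate 4 (next 30.2 CPM).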

How the results depend on the processing

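Of 2041 values of the 9 genes under alternatives, 1894 kept their direction and their side of the threshold, 8 lost a call, 23 gained one and 116 changed sign, none of them past the threshold. The cause of these changes was not tested.

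DESeq2 called 1200 genes in P-SF against NP-SF, 96 in P-SF against P-HF, 1 in NP-SF against NP-HF, 2 in NP-IF against NP-HF, 11 in NP-IF against NP-SF, 2 in the interaction, 2201 in C-SF against C-HF-long, 134 in C-SF against C-HF-short and 13 in C-HF-short against C-HF-long. The interaction, 1 gene in the fit reported, had 0 with library totals, limma-voom, no filter or only the groups compared, and 45 without P-SF replicate 5 and P-HF replicate 1. That omission, chosen after seeing the data, gave 508 genes in P-SF against NP-SF and 634 in P-SF against P-HF. The CTSS interaction was -0.0083 with limma-voom, -0.0050 with no filter and -0.26 without both libraries.

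C-SF against C-HF-long had 934 calls with limma-voom, 424 with the recipient as a random block in limma-voom, 806 with 1 conceptus per recipient and 0 with columns matched to the descriptions. C-SF against C-HF-short, 1 in the fit reported, had 13 with DESeq2's size factors, 11 at a minimum count of 50, 19 without the numbering series, and 0 with only the groups compared, the first series, the random block, 1 conceptus per recipient or the descriptions. CTSS in C-SF against C-HF-long was -0.16 with limma-voom, -0.25 with only the groups compared, -0.26 in the first series, -0.084 with the random block and -1.69 by descriptions. CST6 there was -0.43 with only the groups compared, -0.24 without the numbering series, -0.44 in the first series and -1.12 by descriptions, and CSTB was -0.30 by descriptions. CTSB in C-HF-short against C-HF-long was 0.74 by descriptions, and CTSZ there was -0.038 with the recipient as a replicate block. Slopes on length had 3 calls with no filter and 400 without the numbering series, and the comparison within recipients had 1 with no filter. CTSS within recipients was -0.34 with no replicate block. The CTSB slope was -0.18 without both conceptuses of the recipient of C-HF-long replicate 8.

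Leaving out 1 endometrial library at a time gave 425 (without P-SF replicate 5) to 845 calls in P-SF against NP-SF, 0 to 116 in P-SF against P-HF (116 without P-SF replicate 5), and 0 to 1 in NP-IF against NP-HF and in the interaction. The CTSS interaction ran from -0.17 to 0.13 and CTSK in P-SF against NP-SF from -0.11 to 0.037. Leaving out 1 recipient at a time, CTSB within recipients ran from -0.048 to 0.28. Conceptuses were left out only where they stood apart, chosen after seeing the data. C-SF against C-HF-long had 672 calls without C-SF replicate 2, 801 without C-HF-long replicate 8 and 1435 without both conceptuses of the recipient of C-HF-long replicate 3, and C-SF against C-HF-short had 1 without the first and 2 without the last. CTSB in C-HF-short against C-HF-long was 0.098 without C-HF-long replicate 8 and -0.16 without that recipient.

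With TMM over all 52 libraries in place of scaling within tissues, the log2 ratio of conceptus to pregnant endometrium was 0.068 for CTSB (-1.04 within tissues), -0.15 for CTSD (-1.25), -0.28 for CTSH (-1.39), -2.0 for CTSZ (-3.11), 1.21 for CST3 (0.10) and 3.16 for CSTB (2.06).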
